A study of Mus musculus with 11 samples.

Results

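Endothelial identity genes are the transcripts by which the cells that line blood vessels are recognised, and 34 of them were followed here, by symbol, among the 48709 mouse genes of the count table. The members were given as a list, and each symbol matched 1 Ensembl gene. RNA was sequenced in bulk from the aortic arch of mice at postnatal day 11, in 5 wild-type littermates (Tgfbr2-+/+, called WT 1 to 5) and 6 mice heterozygous for the G357W substitution of Tgfbr2 (Tgfbr2-G357W/+, called Het 1 to 6), made to model type II Loeys-Dietz syndrome, an inherited aneurysm disorder. No treatment is listed for either group. The product of Tgfbr2 is the ligand-binding TGF-beta receptor. Sex and strain are not in the labels, and a library was taken as 1 animal because the series counts 6 and 5 mice.

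The endothelium is held together by adherens and tight junctions, and it senses growth factors through receptor tyrosine kinases, chiefly the receptors for VEGF and the angiopoietins. Its identity is maintained by transcription factors of the ETS and SOXF families, while Klf2 responds to blood flow. In a large artery the intima is a single layer of endothelium inside a thick smooth muscle media, and further endothelium lies in the small vessels of the adventitia and of the surrounding fat, so a bulk library mixes these sources. Fewer endothelial cells and less RNA per cell cannot be told apart in such libraries.

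Counts per library were 13113467 to 19327935, and 3 counts, taken as the limit of detection for counting error, were 0.155 to 0.229 CPM (counts scaled to a common library size after TMM normalisation). Xist, transcribed from the inactive X chromosome, had 900 to 1139 counts in Het 1, Het 2 and every WT library, and 0 to 10 counts in Het 3 to 6, while the Y-linked gene Ddx3y had 1176 to 2039 counts in those 4 and 0 in the others. Xist-negative libraries were therefore all Het. Tgfbr2 lay at 38.3 to 48.8 CPM in WT and 30.9 to 51.4 CPM in Het, and counts do not separate its alleles. Per the labels the tissue holds VSMC and EC, taken as smooth muscle and endothelium, and markers of both were detected. The 6 smooth muscle markers summed to 33560 to 38070 CPM in WT and 30420 to 41440 CPM in Het, and the 6 endothelial markers to 386 to 519 CPM and 309 to 544 CPM, with none of either list at 0. Het 2 had the highest endothelial sum and Het 6 the lowest. The 6 endothelial markers, Pecam1, Cdh5, Kdr, Tie1, Cldn5 and Egfl7, are all members, so their sum is no separate measure of endothelium. At an edgeR adjusted p under 0.05, Cnn1 (1 of 6 smooth muscle markers tested), Pi16 (1 of 6, fibroblasts) and Tnnt3 (1 of 3, skeletal muscle) fell. Cspg4 and Notch3 (2 of 5, pericytes) rose and 0 markers of the other cell types passed, where 5.03% of all tested genes did. Marker sums overlapped between WT and Het for pericytes (5279 to 9574 and 6111 to 9343 CPM) and fibroblasts (1585 to 2257 and 1580 to 2448 CPM). Those of skeletal muscle did not (18.8 to 39.5 and 8.56 to 15.7 CPM).

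Promoter windows from RefSeq (GRCm38.p6, 250 bases before to 50 after the gene start) were matched for 15 of the 34 genes. Those of 3 members are shown because Cldn5 and Emcn had the lowest and the highest log2 fold change of Het against WT among the 33 genes tested, and Tie1, which lay between them, held the most copies of the ETS core. Capitals mark that core, GGAA, on either strand (TTCC on the other), and each sequence runs 5′ to 3′ on the strand of the gene.
Cldn5, chr16:18776597-18776896, plus strand: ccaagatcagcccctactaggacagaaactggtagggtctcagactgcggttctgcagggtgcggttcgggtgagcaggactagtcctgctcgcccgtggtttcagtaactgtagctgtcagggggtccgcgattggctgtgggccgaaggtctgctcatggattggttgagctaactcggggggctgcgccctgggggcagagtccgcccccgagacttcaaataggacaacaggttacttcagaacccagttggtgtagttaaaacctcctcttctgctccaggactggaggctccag
Emcn, chr3:137340828-137341127, plus strand: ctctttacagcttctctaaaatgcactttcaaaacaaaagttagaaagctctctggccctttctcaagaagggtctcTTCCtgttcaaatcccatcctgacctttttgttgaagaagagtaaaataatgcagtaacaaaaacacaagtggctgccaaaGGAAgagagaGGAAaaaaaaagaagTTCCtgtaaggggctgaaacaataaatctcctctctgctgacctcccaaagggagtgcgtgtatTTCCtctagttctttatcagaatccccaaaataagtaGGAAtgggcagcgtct
Tie1, chr4:118489800-118490099, minus strand: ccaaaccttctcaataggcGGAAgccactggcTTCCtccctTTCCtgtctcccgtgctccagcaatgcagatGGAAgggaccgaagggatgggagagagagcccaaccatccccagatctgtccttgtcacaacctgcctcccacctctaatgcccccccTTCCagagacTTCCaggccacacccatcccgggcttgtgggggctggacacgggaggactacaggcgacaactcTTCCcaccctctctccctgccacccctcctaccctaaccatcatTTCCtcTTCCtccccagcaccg
The Cldn5 window held 0 copies, the Emcn window 6 and the Tie1 window 9. GGAA was in 14 of the 15 member windows (93.3%) and in 96.0% of the 27018 windows of all genes, with 1 window per gene. The longer ETS motif ACCGGAAG, which contains GGAA, was in 0 of 15 and in 2.34% of all windows, and CCGGAA, which also contains it, in 1 of 15, that of Kdr, and in 15.2%. The SOX motif AACAAT was in 2 of 15 and 10.9%, the E-box CANNTG in 11 of 15 and 72.2%, the GATA motif AGATAA in 2 of 15 and 11.4%, and GGGTGG and GGGCGG, which KLF and SP factors bind, each in 6 of 15 against 30.9% and 35.9%. All were searched on both strands, and a match is a description of the letters only.

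None of the 34 endothelial identity genes passed the threshold between Het and WT. Of the 33 tested, 0 rose and 0 fell (edgeR quasi-likelihood F test, Benjamini-Hochberg adjusted over all tested genes, threshold 0.05), where 5.03% of the 14757 tested genes passed, 2.65% higher and 2.38% lower in Het. At an unadjusted p under 0.05 there were 7 of 33 (4 with higher and 3 with lower values in Het), against 19.4% of all tested genes. DESeq2 called 2, Cldn5 and Plvap, both lower in Het, where it called 8.26% of all genes. The median log2 fold change of the 33 was 0.14, that of all tested genes -0.0046, and 23 of the 33 were positive, against 49.2% of all tested genes. Without Het 2, which stood apart as described below, 18 of 33 were positive and the median was 0.042. With the sex score, a covariate from Xist and Y-linked genes, 22 of 33 were positive and the median was 0.35. In the 7 Xist-positive libraries alone 22 of 33 were positive and the median was 0.32. Both set mainly Het 1 and Het 2 against WT, because no WT library was Xist-negative. In no member did the Het and the WT libraries separate without overlap, which 4.61% of the tested genes did (2.41% with all Het above all WT and 2.20% with all below). With the sex score 0 members and 0.834% of all genes passed, in the 7 Xist-positive libraries alone 0 members and 0.218%, and without WT 1 and WT 2 0 members and 2.84%. WT 1 and WT 2 held the highest CPM of 15.3% and 12.1% of all tested genes, the other WT libraries of 7.41% to 9.77%. Leaving out this pair was chosen with earlier results of these data known, so it is no independent check.

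The sex score moved single genes both ways, and its smallest adjusted p among them was 0.181 by edgeR, that of Robo4. Log2 fold changes were farther from 0 with it for Robo4 (1.59 in place of 1.06), Esam (0.48 in place of 0.32), Vwf (0.46 in place of 0.23), Tek (0.42 in place of 0.22), Ptprb (0.35 in place of 0.14), Bmx (0.42 in place of 0.08), S1pr1 (0.38 in place of 0.13) and Aplnr (0.60 in place of 0.24), among others. They were nearer to 0 for Pecam1 (-0.08 in place of -0.28), Cldn5 (-0.45 in place of -0.73), Plvap (-0.31 in place of -0.51), Mmrn2 (-0.02 in place of -0.29) and Erg (-0.07 in place of -0.25), among others. The sign turned for Klf2 (-0.09 in place of 0.14). These values lay near those of the Xist-positive libraries alone, such as 1.55 for Robo4 and 0.49 for Esam. Both fits rest mainly on Het 1 and Het 2 against WT, and Het 2 stood apart as described below. They are therefore not a clean adjustment for sex.

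**Figure D1:**
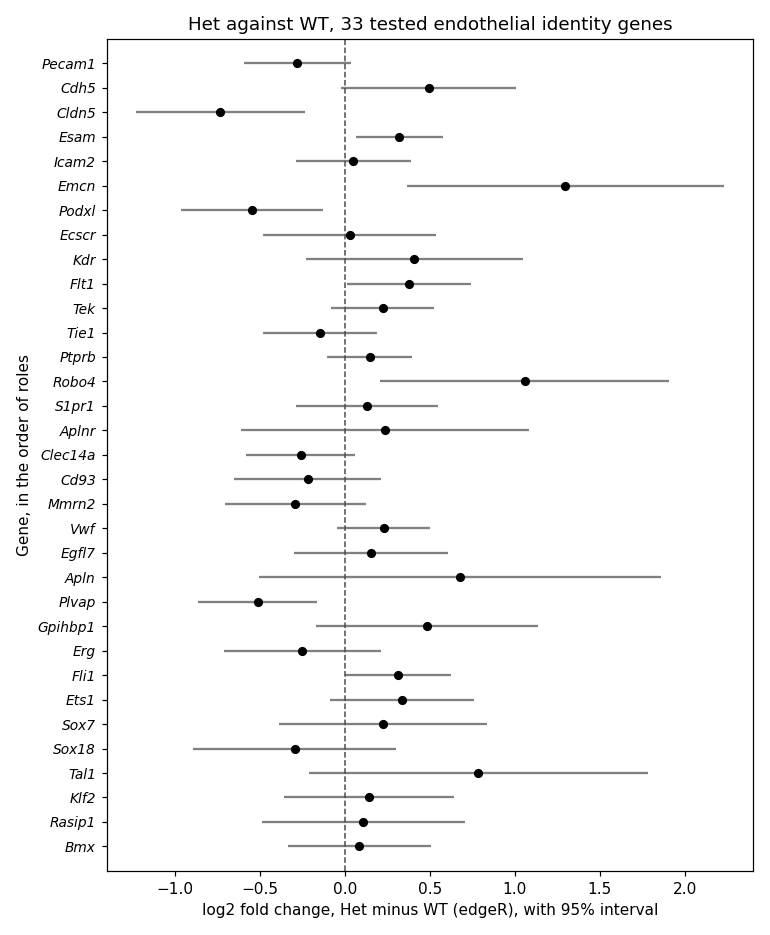
Log2 fold change of Het against WT (x axis, edgeR) for 33 tested endothelial identity genes (y axis, in the order of their roles), with points for the estimate and lines for the 95% interval. The interval lies off 0 for 7 genes, Cldn5, Podxl and Plvap below it and Esam, Emcn, Flt1 and Robo4 above it, and none passed after adjustment.

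A call that is missed does not show that levels were alike, so the 95% interval of each log2 fold change was computed. For 24 of the 33 genes the interval lay within 2-fold in both directions, and for 10 within 1.5-fold. Narrow intervals were those of Ptprb (interval -0.11 to 0.39) and Vwf (-0.04 to 0.50), and the widest those of Apln (-0.51 to 1.86), Tal1 (-0.21 to 1.78) and Emcn (0.36 to 2.23). Apln, Tal1 and Emcn were all under 5 CPM on average in WT.

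Levels differed far more between the genes than between the groups. Per kilobase of exon, WT means ran from 47.5 CPM per kb for Pecam1 to 0.156 CPM per kb for Sox17. After Pecam1, a junctional adhesion molecule that leukocytes and platelets also carry, came Cldn5, the endothelial claudin of tight junctions (32.2 ± 4.72 CPM per kb, SD, n = 5), Esam, a tight junction adhesion molecule (28.1 ± 4.59), and Cd93, a C-type lectin-like receptor (25.1 ± 8.93). Cldn5 and Esam, and likewise Esam and Cd93, lay within 1 SD of each other. Cdh5, the endothelial cadherin of adherens junctions, was at 1.47 ± 0.397 CPM per kb in WT, 32.3-fold below Pecam1. This ratio was 14.6 to 44.4 over the 11 libraries. The VEGF receptor genes Kdr (0.697 ± 0.374) and Flt1 (0.399 ± 0.0834) lay lower still, while the angiopoietin receptor gene Tek (7.795 ± 1.32) and its partner Tie1 (7.11 ± 1.49) lay above Cdh5. The exon union of all annotated transcripts was used as the length, so a gene with long rarely used exons reads low on this scale.

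**Figure D2:**
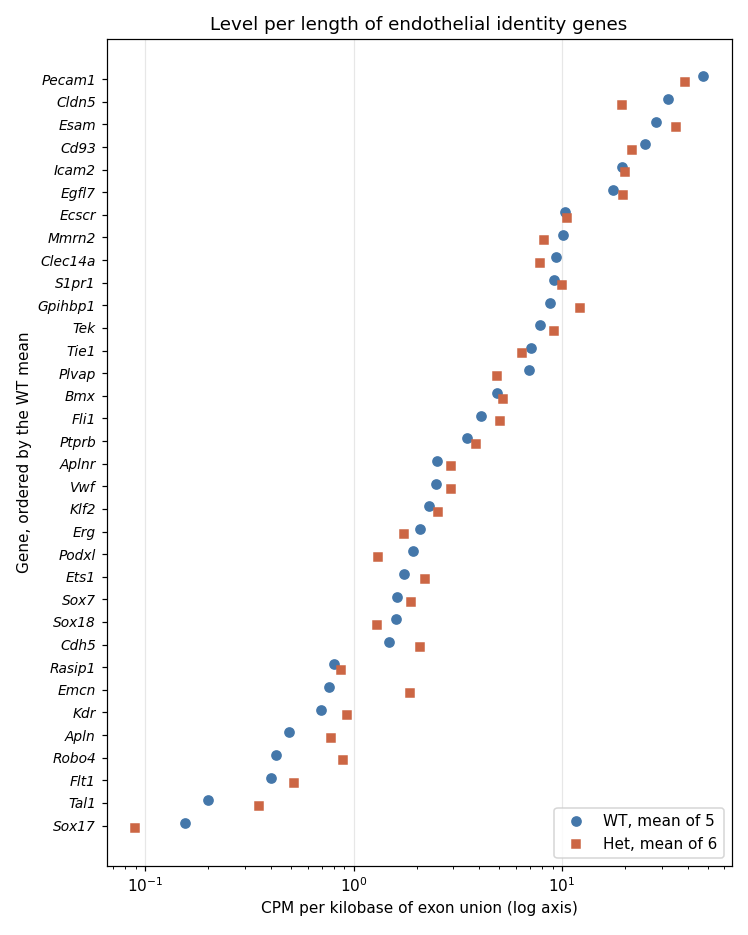
Mean CPM per kilobase of exon union (x axis, log scale) for the 34 genes ordered by their WT mean (y axis), with circles for WT (n = 5) and squares for Het (n = 6). Pecam1 is highest in both groups and Sox17 lowest in both, and Emcn and Cldn5 show wide gaps between the groups.

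Among the genes of junctions and the cell surface, values leaned both ways. Cldn5 (GRCm38, chr16:18776847-18778262) was at 45.7, 43.4, 54.4, 48.1 and 36.1 CPM in WT 1 to 5, and at 28.3, 36.0, 45.7, 18.9, 19.3 and 16.3 CPM in Het 1 to 6. Het 3 lay among the WT values, Het 2 just under the lowest of them, and the other 4 Het libraries well below it, Het 4, 5 and 6 lowest. The log2 fold change was -0.73 ± 0.23 (SE), higher in WT, with an adjusted p of 0.0870 by edgeR (0.0265 by DESeq2). Without Het 3 it was -0.94 and passed (adjusted p = 0.0131 by edgeR), and with the sex score as a covariate it was -0.45 (adjusted p = 0.669 by edgeR). The 3 lowest libraries are Xist-negative, but so is Het 3, the highest Het library, while Het 1 is Xist-positive. No WT library is Xist-negative, so within the Xist-negative libraries genotype and sex cannot be told apart.

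Emcn encodes endomucin, a sialomucin best known from veins and capillaries. It (chr3:137341067-137432185) lay at 4.17, 0.536, 2.93, 6.61 and 6.35 CPM in WT 1 to 5 and at 5.09 to 15.2 CPM in Het (median 10.2). Het 5 lay within the WT range and the other Het libraries lay above it. The log2 fold change, 1.30 ± 0.44, was the highest of the tested members, and its adjusted p was 0.107 by edgeR. Podxl, the sialomucin podocalyxin, which mesothelium also expresses, was at 9.60, 7.23, 13.6, 10.6 and 11.6 CPM in WT and 4.95 to 9.66 CPM across Het libraries (median 7.25; log2 fold change -0.55 ± 0.20, adjusted p = 0.126 by edgeR). Its groups overlapped through WT 2 and Het 2. The 5 mesothelial markers summed to 27.9 to 95.2 CPM in WT and 12.5 to 114 CPM in Het, and their part in the Podxl values was not tested.

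Pecam1 (chr11:106654217-106750628) was at 231, 229, 338, 343 and 337 CPM in WT 1 to 5 and at 202 to 336 CPM in Het (median 233). WT 1 and WT 2 lay with most Het libraries, and Het 2 lay with WT 3 to 5. The log2 fold change was -0.28 ± 0.15 (adjusted p = 0.317 by edgeR), -0.48 without WT 1 and WT 2 and -0.08 with the sex score. Esam was at 66.7, 69.5, 80.2, 88.5 and 98.3 CPM in WT and at 88.4 to 132 CPM across Het libraries (median 95.4; log2 fold change 0.32 ± 0.12, adjusted p = 0.149 by edgeR). The top value was Het 2, and the other Het libraries, at 88.4 to 98.9 CPM, lay in or just over the upper part of the WT range. Cdh5 (chr8:104101625-104144511) spanned 4.63 to 8.78 CPM among WT and 4.21 to 11.5 CPM among Het libraries (0.49 ± 0.24, adjusted p = 0.284 by edgeR). Pecam1 and Cldn5 thus had negative and Cdh5 and Esam positive log2 fold changes, none of them past the threshold.

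The other surface genes of this group had log2 fold changes near 0. Icam2, an intercellular adhesion molecule of resting endothelium, averaged 36.8 ± 6.77 CPM among WT (n = 5, SD) and 38.1 ± 8.88 CPM among Het libraries (n = 6, SD), a log2 difference of 0.05 with an interval of -0.29 to 0.39. Ecscr, a surface regulator of endothelial migration, was at 18.0 ± 6.75 and 18.4 ± 4.21 CPM (interval -0.48 to 0.54). WT 1, WT 2 and Het 5 lay at 10.6 to 10.9 CPM for Ecscr and the other 8 libraries at 18.1 to 23.8 CPM. Exons of Ecscr overlap those of another annotated gene, 1700066B19Rik, whose reads cannot be told apart in libraries without strand.

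**Figure D3:**
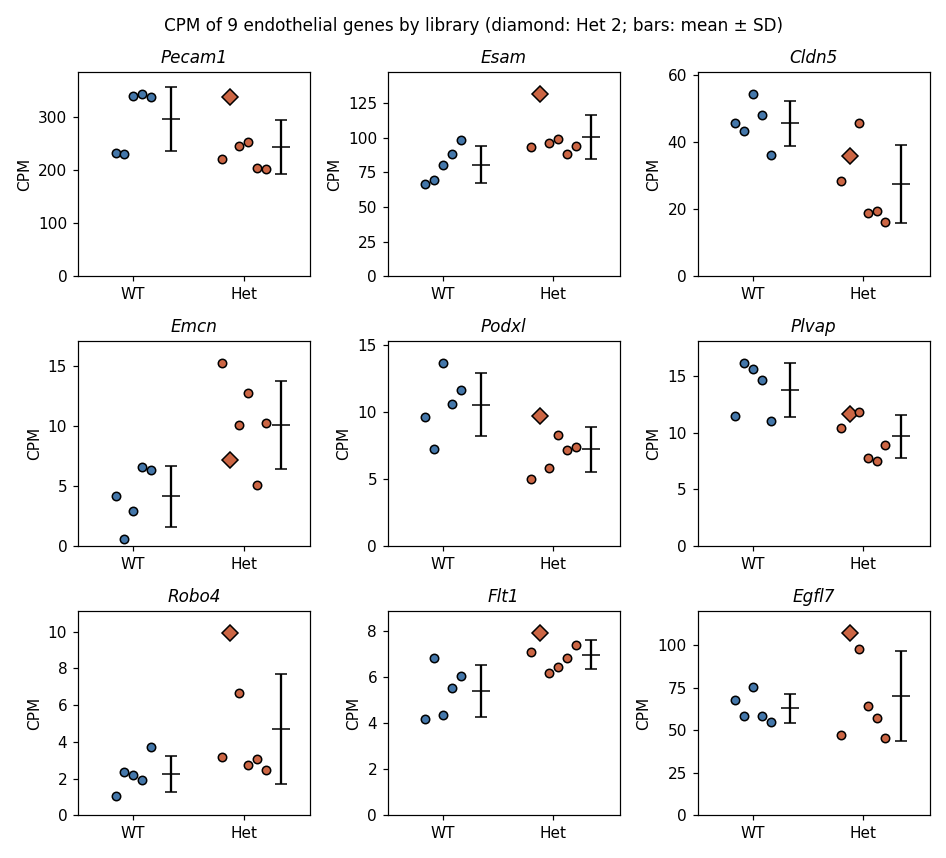
CPM (y axis) of 9 endothelial identity genes in the 5 WT and 6 Het libraries, 1 point per library, with a diamond for Het 2 and bars for the mean ± SD. Het 2 is the highest library for Esam, Robo4, Flt1 and Egfl7, and every Het library but Het 3 lies below all WT libraries for Cldn5.

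Receptor genes had mostly positive log2 fold changes, 7 of 8, and none passed. Flt1, a VEGF receptor that acts largely as a decoy, was at 4.17, 6.83, 4.36, 5.51 and 6.05 CPM in WT and at 6.17 to 7.93 CPM across Het libraries (median 6.96; log2 fold change 0.38 ± 0.17, adjusted p = 0.243 by edgeR). WT 2 alone lay within the Het range. Kdr, the main signalling receptor for VEGF, was at 3.77 to 10.5 CPM in WT, where WT 2 and WT 5 lay at 10.5 and 9.42 and the other 3 libraries at 3.77 to 3.95, and at 6.45 to 11.2 CPM in the Het group (0.41 ± 0.30 on the log2 scale, adjusted p = 0.502 by edgeR). Robo4, a guidance receptor that stabilises vessels, was at 1.06, 2.34, 2.21, 1.91 and 3.74 CPM in WT and at 2.495 to 9.94 CPM across Het libraries (median 3.13). Het 2 and Het 3, at 9.94 and 6.69 CPM, stood above the other 9 libraries. Its log2 fold change was 1.06 ± 0.40 (adjusted p = 0.149 by edgeR), 0.70 without Het 2 and 1.59 with the sex score.

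Tek, the angiopoietin receptor, averaged 36.7 ± 6.23 CPM among WT and 42.8 ± 8.54 CPM among Het libraries (interval of the log2 difference -0.08 to 0.52), and Tie1, its orphan partner, at 34.9 ± 7.33 and 31.6 ± 6.21 CPM (-0.48 to 0.19). Ptprb, the phosphatase that restrains the angiopoietin receptor, was at 46.8 ± 5.44 and 51.7 ± 8.98 CPM. Its Het libraries lay at 44.4 to 49.6 CPM except Het 2 at 69.6. S1pr1, the receptor for sphingosine 1-phosphate, was at 22.9 to 31.9 CPM in WT and 21.0 to 45.7 CPM in Het, with Het 2 and Het 3 above all others (log2 fold change 0.13 ± 0.20). Aplnr, the apelin receptor, was at 2.72 to 16.2 CPM in WT, wider than the 7.37 to 14.0 CPM of Het (0.24 ± 0.40). The adjusted p of these 5 receptor genes were 0.431, 0.679, 0.560, 0.788 and 0.809 by edgeR in that order.

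The lectin-like receptors Clec14a and Cd93 and their matrix ligand Mmrn2 were the 1 role group in which every member, 3 of 3, had a negative log2 fold change, and none passed. Clec14a averaged 42.9 ± 10.04 CPM among WT and 35.8 ± 6.08 CPM among Het libraries (-0.26 ± 0.15, adjusted p = 0.371 by edgeR). Mmrn2 was at 40.0 ± 6.09 and 32.7 ± 10.8 CPM (-0.29 ± 0.20, adjusted p = 0.450 by edgeR). Cd93 was at 259, 182, 151, 148 and 97.0 CPM in WT and at 112 to 178 CPM across Het libraries (-0.22 ± 0.20, adjusted p = 0.610 by edgeR). The sign for Cd93 rested on WT 1 and WT 2, without which it was 0.12. Cd93 is also expressed by myeloid cells, and the 8 leukocyte markers summed to 51.7 to 140 CPM in WT and 64.9 to 197 CPM in Het, and their part in the Cd93 values was not tested.

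Secreted products showed no call. Vwf, which encodes von Willebrand factor of endothelium and platelets, was at 44.8, 35.9, 37.9, 46.4 and 35.1 CPM in WT and at 39.2 to 62.9 CPM across Het libraries (median 45.04; log2 fold change 0.23 ± 0.13, adjusted p = 0.357 by edgeR). The 6 platelet markers summed to 11.99 to 39.7 CPM in WT and 21.6 to 39.8 CPM in Het, and their part in Vwf, Pecam1 and Esam was not tested. Egfl7, a secreted matrix protein whose gene hosts miR-126, was at 54.8 to 75.4 CPM in WT and 45.4 to 107 CPM in Het, with Het 2 and Het 3 at 107 and 98.1 CPM and Het 6 at the lowest value. Its SD was 8.49 CPM in WT (n = 5) and 26.5 CPM in Het (n = 6), and its log2 fold change was 0.15 ± 0.21. Exons of Egfl7 overlap those of Agpat2, whose reads cannot be told apart from its own. Apln, the ligand apelin, made by sprouting endothelium and encoded on the X chromosome, was at 2.58, 0.804, 0.103, 0.955 and 3.29 CPM in WT and 1.19 to 3.67 CPM across Het libraries (0.67 ± 0.56, adjusted p = 0.561 by edgeR). Its WT 3 value rested on 2 counts, under the 3 counts taken as the limit of detection.

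The 2 capillary genes had opposite signs. Plvap, the protein of the diaphragms of fenestrae and caveolae (chr8:71497765-71511752), was at 11.5, 16.1, 15.7, 14.6 and 11.1 CPM in WT and at 7.53 to 11.8 CPM across Het libraries (median 9.66; log2 fold change -0.51 ± 0.16, adjusted p = 0.0876 by edgeR and 0.0388 by DESeq2). Its groups overlapped through WT 1 and WT 5, while Het 4, 5 and 6, at 7.53 to 8.90 CPM, were the lowest libraries, as for Cldn5. Het 3, also Xist-negative, was the highest Het library for both genes. With the sex score Plvap was at -0.31 (adjusted p = 0.678 by edgeR). Gpihbp1, which carries lipoprotein lipase to the lumen of capillaries in fat and muscle, was at 20.2, 26.7, 11.9, 20.1 and 32.6 CPM in WT and 16.1 to 47.3 CPM across Het libraries (0.48 ± 0.30, adjusted p = 0.423 by edgeR). The libraries with the most Gpihbp1 were Het 2, Het 3 and WT 5, and these 3 also had the highest sums of the 6 fat markers, 2102, 1854 and 2799 CPM, where the other 8 had 326 to 1406 CPM. The 5 skeletal muscle markers summed to 18.8 to 39.5 CPM in WT and 8.56 to 15.7 CPM in Het, without overlap, and their part in the Gpihbp1 values was not tested. With a fat score as a covariate the Gpihbp1 value was 0.51 ± 0.18 (adjusted p = 0.109 by edgeR).

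Transcription factor genes averaged from 0.742 CPM (Sox17) to 14.8 CPM (Ets1) in WT, and none of the 7 tested passed. Of the ETS family, Erg averaged 7.21 ± 1.29 CPM among WT and 6.04 ± 1.93 CPM among Het libraries (log2 fold change -0.25 ± 0.22). Fli1, which blood cells also use, was at 14.2 ± 1.77 and 17.6 ± 3.35 CPM (0.31 ± 0.15, adjusted p = 0.258 by edgeR), and Ets1 at 14.8 ± 4.39 and 18.6 ± 2.99 CPM (0.33 ± 0.20, adjusted p = 0.390 by edgeR). Ets1 had 1 low library, WT 3 at 7.19 CPM, and the other WT libraries lay at 15.4 to 18.5 CPM. The SOXF genes Sox7 (0.22 ± 0.29) and Sox18 (-0.30 ± 0.28) differed in sign. Sox17, the arterial SOXF gene, had 6, 26, 9, 9 and 6 counts in WT 1 to 5 and 2 to 13 counts in Het. Its exons overlap those of another annotated gene, Gm37587. The filter on low counts removed Sox17, which was not tested in the main analysis. Without the filter its log2 fold change was -0.80 ± 0.62 with an adjusted p of 0.560 by edgeR. Tal1, shared with blood progenitors, was at 0.067 to 1.54 CPM in WT and 1.08 to 2.23 CPM across Het libraries (0.78 ± 0.47, adjusted p = 0.389 by edgeR), with the WT 2 value resting on 1 count. Klf2, the factor induced by laminar flow, was at 4.25 ± 0.851 and 4.70 ± 1.38 CPM (0.14 ± 0.24, adjusted p = 0.810 by edgeR).

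The signalling genes Rasip1 and Bmx did not differ beyond the spread of their libraries. Rasip1, which is needed for the formation of vessel lumens, averaged 2.57 ± 0.846 CPM among WT and 2.78 ± 0.780 CPM among Het libraries. Exons of Rasip1 overlap those of other annotated genes, A030001D20Rik, Gm45437 and Izumo1. Bmx, a kinase of arterial endothelium that is encoded on the X chromosome, was at 10.9 to 20.9 CPM in WT and 10.6 to 23.5 CPM across Het libraries (interval of the log2 difference -0.34 to 0.50). The Xist-negative libraries Het 3 to 6 lay at 10.6 to 15.6 CPM for Bmx and the Xist-positive Het 1 and Het 2 at 17.2 and 23.5 CPM. WT libraries, all Xist-positive, overlapped both, with Het 5 below and Het 2 above all of them.

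Across libraries the endothelial genes were high together in Het 2. This library held the highest value of 17 of the 34 genes among all 11 libraries, where 7.13% of all tested genes had their highest CPM in it. Within the Het group it held the highest value of 23 of 34, and the share of all genes was not computed there. In it 33 of the 34 lay above their own mean over the 11 libraries, the exception being Sox17, against 25 in Het 3 and 7 in Het 5, the extremes of the others. The median deviation of the 34 genes from their means was 0.47 in Het 2 on the log2 scale and between -0.15 and 0.16 in the other 10 libraries. The summed level of the 34 genes averaged 1125 ± 69.8 CPM among WT (n = 5, SD) and 1089 ± 214 CPM among Het libraries (n = 6, SD), or 1013 ± 119 CPM in Het without Het 2 (SD, n = 5). Pecam1 and Cd93 made up 41.2% of that sum in WT and 35.5% in Het. In Het 2 the fat markers were the second highest of all libraries, while its leukocyte sum (132 CPM) and its smooth muscle sum (34450 CPM) lay within the range of the others, and their part in the endothelial values was not tested. Het 1, the other Xist-positive Het library, had a median deviation of -0.15.

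**Figure D4:**
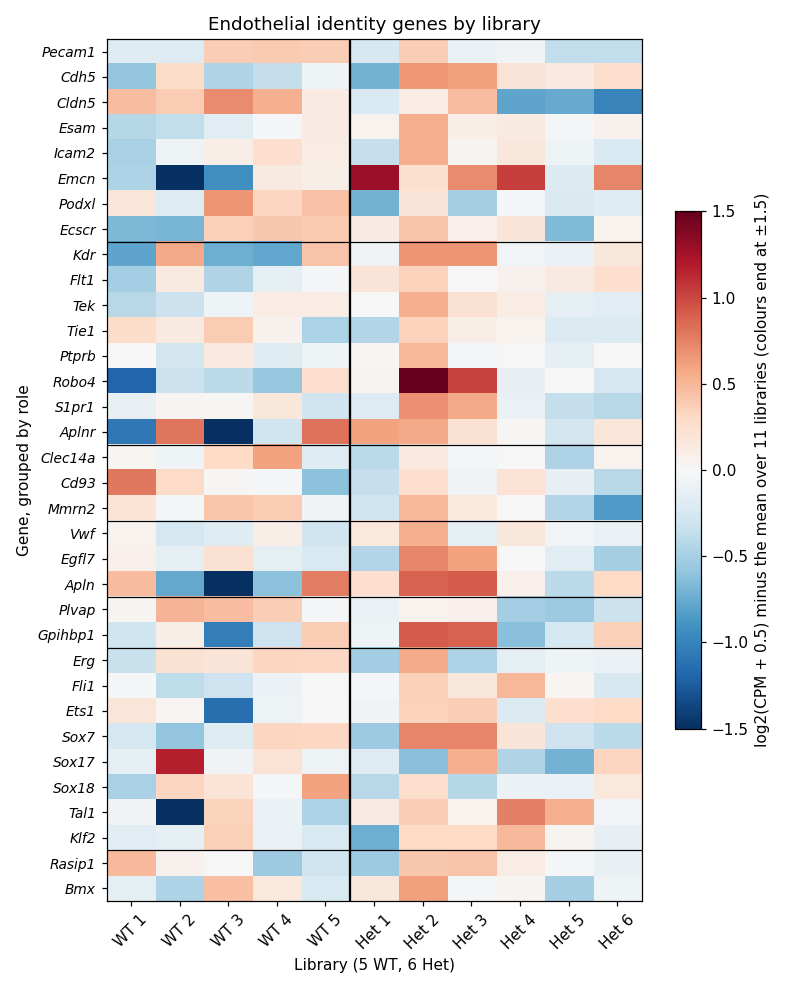
Deviation of log2(CPM + 0.5) from the mean over the 11 libraries (colour) for the 34 genes in rows, separated by role, and the libraries in columns, WT left and Het right of the line. The Het 2 column is above the mean for 33 of 34 genes, and no role group separates WT from Het throughout.

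The 85 other genes of endothelial subtypes and pathways, in 9 lists, held 6 calls among the 79 tested, 3 up and 3 down, beside the 5.03% of all genes that passed. The median log2 fold change of the 79 was 0.21. Of 11 tested arterial genes 0 rose and 1 fell, of 9 venous and lymphatic genes 1 rose and 0 fell, of 9 capillary and lipid uptake genes 0 rose and 2 fell, and of 9 tip cell and angiogenic genes 1 rose and 0 fell. Of 12 nitric oxide, endothelin and anticoagulant genes 1 rose and 0 fell. None passed among 7 VEGF and angiopoietin ligands, 6 BMP and TGF-beta receptor genes, 5 activation genes and 11 further transcription factors, where 4, 1, 2 and 1 in that order had an unadjusted p under 0.05, against 19.4% of all tested genes. DESeq2 called 8 up and 3 down over the 9 lists, where it called 8.26% of the 15844 genes it tested.

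Those 6 genes are not restricted to endothelium, and smooth muscle, fibroblasts or epithelia of vessels and other tissues are known to express them. Col18a1, which encodes the basement membrane collagen that yields endostatin, averaged 46.5 ± 4.58 CPM among WT and 92.8 ± 13.03 CPM among Het libraries (log2 fold change 1.00 ± 0.11, adjusted p = 6.03e-05 by edgeR). Nr2f2, the venous fate factor, which mesenchymal cells also express, went from 127 ± 17.5 to 246 ± 45.2 CPM (0.95 ± 0.13, adjusted p = 3.98e-04 by edgeR). Aqp1, a water channel of capillaries and of smooth muscle, went from 167 ± 33.04 to 85.0 ± 7.42 CPM (-0.97 ± 0.12, adjusted p = 1.87e-04 by edgeR). The 5 erythroid markers summed to 527.5 to 1199 CPM in WT and 297.2 to 696.8 CPM in Het, and their part in the Aqp1 values was not tested. Col18a1, Nr2f2 and Aqp1, like Calcrl below, separated all Het from all WT libraries, which 4.61% of all tested genes and 0 of the 34 identity genes did. They are shown because they were called, so their separation is no independent contrast with the identity genes. Sparcl1, a matricellular protein, fell from 1637 ± 247 to 982 ± 256 CPM (-0.74 ± 0.15, adjusted p = 0.00936 by edgeR), with Het 1 at 1492 CPM among the WT values.

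Calcrl, the receptor subunit for adrenomedullin, was at 22.4 ± 4.00 and 31.2 ± 2.87 CPM (0.47 ± 0.12, adjusted p = 0.0372 by edgeR), and Cxcl12, a chemokine of arterial endothelium and fibroblasts, at 338 ± 55.4 and 234 ± 54.3 CPM (-0.53 ± 0.14, adjusted p = 0.0453 by edgeR). Calcrl missed the threshold when any one of WT 1, WT 2, WT 5, Het 2, Het 3, Het 4 and Het 6 was left out, with an adjusted p of up to 0.0891 by edgeR (WT 2 left out). Cxcl12 missed it when any library other than Het 3 was left out, with an adjusted p of up to 0.122 by edgeR (WT 3 left out). With the sex score, Col18a1, Nr2f2 and Aqp1 passed and Sparcl1, Calcrl and Cxcl12 did not (adjusted p = 0.356, 0.349 and 0.448 by edgeR). In the Xist-positive libraries alone Col18a1 and Nr2f2 passed, and Aqp1 (adjusted p = 0.112 by edgeR), Sparcl1 (0.556), Calcrl (0.520) and Cxcl12 (0.370) did not.

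**Figure D5:**
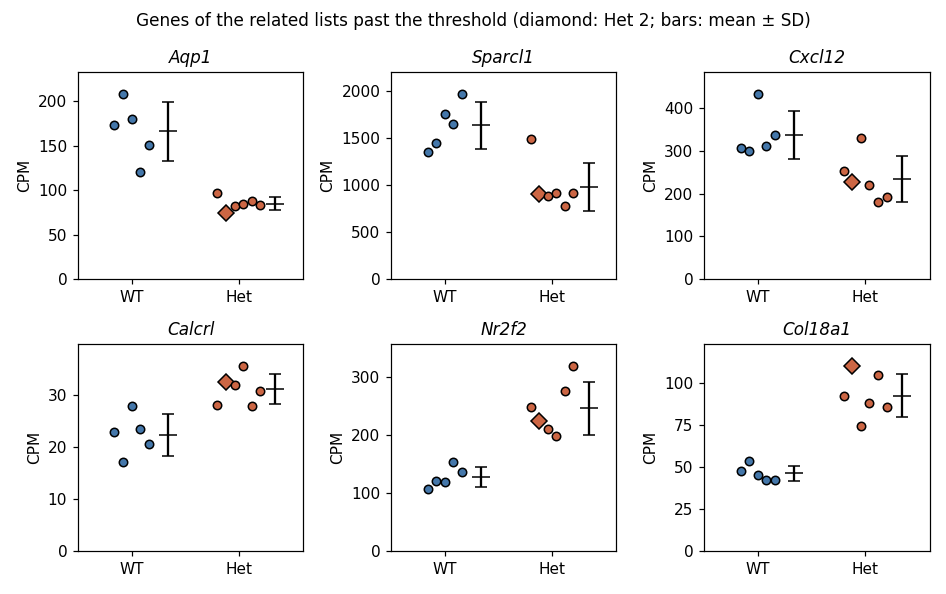
CPM (y axis) of the 6 genes of the related lists that passed the threshold in the 5 WT and 6 Het libraries, 1 point per library, with a diamond for Het 2 and bars for the mean ± SD. Aqp1, Calcrl, Nr2f2 and Col18a1 show no overlap between the groups, while Het 1 for Sparcl1 and Het 3 for Cxcl12 lie among the WT values.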

How the data were processed

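RNA of 11 mouse aortic arches (5 WT, 6 Het) was sequenced as unstranded single-end libraries, per the labels' protocols. The deposited counts are raw counts per gene made by the authors, and STAR 2.5.2a and the GRCm38 build are named in the submitters' processing notes, where no counting program is listed. The deposited signal table holds the authors' counts per TMM-scaled library size and was used only for an alternative test.

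The 24 spike-in and transgene rows were left out. Genes were kept by edgeR's filterByExpr (at least 10 counts, total 15), scaled by TMM and tested with edgeR 4.0.16's robust quasi-likelihood test (R 4.3.3) over all 14757 kept genes, Benjamini-Hochberg adjusted, threshold 0.05, with genotype as the only term. The procedure was tested on simulated data. Total counts were 13113467 to 19327935. Exon lengths came from GENCODE M21. Alternatives used limma 3.58.1, DESeq2 1.42.0, other scaling, no filter, covariates and libraries left out.

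The members, role groups, related lists and markers were chosen with earlier results of these data known. All 34 members are named, ordered by role, and of each related list the genes past the threshold, at most the 3 with the smallest p; Tgfbr2, Xist and Ddx3y serve as checks. P-values set the difference between Het and WT against the spread between libraries.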

Additional observations from a re-analysis of the deposited data

Results flagged for a closer look

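Dixon's test for 1 library far from the others of its group was run on 68 groups (34 genes in WT and in Het), where chance flags about 1 in 20, or 3.4. It picked out 8. Het 2 stood high among the Het libraries for Pecam1 (336.4 CPM, others 202.3 to 251.8), Esam (131.7 CPM, others 88.42 to 98.92), Ptprb (69.61 CPM, others 44.37 to 49.58) and Erg (9.657 CPM, others 4.286 to 6.068). Among the WT libraries, WT 1 was low for Erg (4.966 CPM, others 7.342 to 8.083) and WT 3 low for Ets1 (7.188 CPM, others 15.36 to 18.47), while WT 3 was high for Klf2 (5.75 CPM, others 3.663 to 4.042) and WT 2 high for Sox17 (1.742 CPM, others 0.3972 to 0.6614).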

How the results depend on the processing

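Each result was recomputed under 23 alternatives, all chosen with earlier results of these data known, and 1 of them, a covariate for the 6 or 7 in each column name, added last, after seeing the data. The meaning of that number is not given. It was 7 in every WT library but WT 3, and 6 in every Het library but Het 3 and Het 6. It is therefore partly confounded with genotype. The 742 genes called became 1308 by DESeq2, 329 with the replicate block, 123 with the sex score, 34 in the libraries with at least 100 Xist counts, 432 without WT 1 and WT 2, 415 with that column number, and 458 (without WT 2) to 853 (without WT 4) when 1 library was left out. The endothelial genes that fell were 2 by DESeq2 (Cldn5 and Plvap), 1 with the fat score (Cldn5) and 0 to 1 with 1 library left out (Cldn5, without Het 3); 0 to 0 rose. Related genes that rose were 8 by DESeq2 and 2 to 5 with 1 library left out, and those that fell were 1 with the block, 1 with the sex score, 0 in the Xist libraries (in which 2 rose) and 2 to 3 with 1 library left out. With the replicate block the calls of Sparcl1 (adjusted p = 0.0779 by edgeR), Calcrl (0.104) and Cxcl12 (0.0513) were lost. Calcrl was also lost with the column number (adjusted p = 0.132 by edgeR) and without WT 1 and WT 2 (0.153). So was Cxcl12 (0.0994 and 0.0761 in that order), which was lost with no filter as well (0.0692). The median log2 fold change of the members was 0.346 with the sex score and 0.042 to 0.22 with 1 library left out, 0.042 being without Het 2. Signs that turned were all of uncalled genes, and the cause was not tested: without WT 1 and WT 2, Icam2 -0.11, Ecscr -0.32, Cd93 0.12, Sox7 -0.00054 and Bmx -0.085; with the column number, Icam2 -0.034, Ecscr -0.043 and Bmx -0.061; for Klf2, -0.088 under the sex score and -0.10 among Xist-positive libraries. With 1 library left out, the range was -0.074 to 0.12 for Icam2, -0.12 to 0.14 for Ecscr, -0.025 to 0.22 for S1pr1, -0.0075 to 0.53 for Aplnr, -0.0086 to 0.25 for Egfl7, -0.019 to 0.29 for Rasip1 and -0.053 to 0.23 for Bmx. Same-numbered WT and Het libraries correlated at -0.214 to 0.059, and no WT library correlated best with the Het library of its own number. The numbers thus gave no sign of pairing the animals. For Sox17, under 1 CPM in most libraries, a few counts set the value.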
